A study of Mus musculus with 2 samples.

Results

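The membrane skeleton of the red cell was followed through fetal liver erythroid differentiation with 7 genes, *Sptb*, *Ank1*, *Epb41*, *Dmtn*, *Add1*, *Add2* and *Tmod1*. They were chosen by symbol for the part their proteins play beneath the red cell membrane, and all 7 are listed among the 27998 genes of the expression matrix. Earlier results of these data were known when they were chosen, so counts of members beside those of all genes are descriptions and not tests. The cells came from pooled fetal livers of C57BL/6 mouse embryos at e13.5. The labels name no transgene or treatment. Ter119-positive cells were removed with magnetic beads and then added back in a number equal to that of the Ter119-negative cells, so that the numbers of cells per stage do not describe the liver. CITE-seq, in which antibodies carrying DNA barcodes are counted together with the mRNA of each cell, gave 1 cDNA library and 1 antibody library of the same cells.

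The 6 stages were separated by the antibodies against Ter119, a surface antigen that appears as erythroid cells mature, and CD71, the transferrin receptor, which is high while cells take up iron for haemoglobin. S0-low, S0-medium and S1 are low in Ter119 and have low, medium and high CD71. S2 has intermediate Ter119 and high CD71, S3 high Ter119 and high CD71, and S4/S5 high Ter119 and lower CD71. They are groups of cells of 1 pool of livers. With no replicate of any stage, and since cells of a pool are not independent of it, no difference between stages could be tested. Intervals in parentheses are exact 95% intervals and cover counting error only.

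The skeleton is a mesh of long, flexible spectrin tetramers whose ends meet at short actin filaments. It is fastened to the lipid bilayer through transmembrane proteins, chiefly the anion exchanger band 3 (*Slc4a1*), and lets the cell deform in capillaries and return to its shape. Inherited defects of spectrin, ankyrin and protein 4.1 cause hereditary spherocytosis or elliptocytosis, in which red cells are lost early. Erythroid precursors replace the actin cortex of nucleated cells by this mesh before they lose their nucleus.

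The stage axes rest on the antibody barcodes below, given in full because a cell's stage is the number of times each was read in it.
Ter119: GAGGCGATTGAT
CD71: CGAAGAAGGAGT

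On GRCm38.p6, the mm10 build to which the reads were mapped, RefSeq places *Sptb* (ENSMUSG00000021061) at chr12:76580488-76710547, *Ank1* (ENSMUSG00000031543) at chr8:22974836-23150501 and *Epb41* (ENSMUSG00000028906) at chr4:131923413-132075346. *Dmtn* (ENSMUSG00000022099) lies at chr14:70602184-70636048 and *Tmod1* (ENSMUSG00000028328) at chr4:46038940-46116032. The adducin genes are on different chromosomes, *Add1* (ENSMUSG00000029106) at chr5:34573664-34632308 and *Add2* (ENSMUSG00000030000) at chr6:86028681-86124409. RefSeq promoter sequences were at hand for 5 of the 7 genes, in 7 entries, 3 of them of *Epb41*. Each entry was searched over the 250 bases before its own annotated start, on both strands. The motifs were CACCC, the core of the boxes bound by the erythroid factor KLF1, AGATAA, a spelling of the GATA1 site, and the E-box CAGNTG. The first of these, CACCC, was found in 3 of the 7 entries, those of *Sptb*, *Add2* and *Tmod1*, and in 52.0% of 32851 promoters. AGATAA was found in 0 of the 7 entries and in 9.99% of all promoters, and CAGNTG in 5 entries and in 44.8%. With the spelling AGATAG, the spelling TGATAA and the spelling TGATAG added, 2 entries held a GATA1 spelling, the first of *Epb41* and that of *Add2*, against 26.5% of all promoters. The 3 windows with CACCC are shown because they belong to genes with different courses below. By S0-medium, *Add2* had covered 73.2% of the way from S0-low to its highest CPM, *Sptb* 28.8% and *Tmod1* 12.4%. With globin UMIs left out of the denominator, these shares were 44.1%, 17.4% and 6.97%. Capitals mark CACCC or its reverse complement, none of which overlapped a match of another motif. They begin at position -95 from the start in *Sptb*, -131 in *Add2*, and -141 and -87 in *Tmod1*. The windows are chr12:76710548-76710797 on the minus strand for *Sptb*, chr6:86028431-86028680 on the plus strand for *Add2* and chr4:46038972-46039221 on the plus strand for *Tmod1*. The *Tmod1* window lies within the gene interval given above, because its promoter entry starts further along than that interval.
Sptb: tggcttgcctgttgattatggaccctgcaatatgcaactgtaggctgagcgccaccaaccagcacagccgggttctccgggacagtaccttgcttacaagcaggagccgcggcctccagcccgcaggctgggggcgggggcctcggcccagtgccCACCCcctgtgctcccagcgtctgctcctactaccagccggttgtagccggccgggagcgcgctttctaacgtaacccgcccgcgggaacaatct
Add2: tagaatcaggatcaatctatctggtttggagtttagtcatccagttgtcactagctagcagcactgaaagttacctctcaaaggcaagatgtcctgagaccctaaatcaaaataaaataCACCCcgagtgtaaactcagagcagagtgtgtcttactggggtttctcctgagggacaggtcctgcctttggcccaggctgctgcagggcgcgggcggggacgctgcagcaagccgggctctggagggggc
Tmod1: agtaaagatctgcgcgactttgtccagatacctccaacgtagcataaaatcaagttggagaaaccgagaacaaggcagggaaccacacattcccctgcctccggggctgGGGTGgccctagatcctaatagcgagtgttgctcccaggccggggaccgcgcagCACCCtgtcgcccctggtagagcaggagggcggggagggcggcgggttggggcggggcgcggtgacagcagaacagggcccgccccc

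The library held 7863 cells and 58606632 UMIs, and each cell between 2510 and 38047 UMIs (median 5707). All 7863 barcodes were shared by the antibody library, whose median was 1092 counts per cell. After filtering, 7244 cells remained and 6209 had a stage, from 612 in S1 to 1510 in S0-low. From S0-low to S4/S5 the median depth per cell was 6146, 10282, 10152, 6021, 4501 and 3944 UMIs. Globin transcripts made up 1.05% of the UMIs in S0-low, 13.2% in S2, 38.0% in S3 and 64.2% in S4/S5, and the same amount of any other transcript therefore gives a lower level per UMI sequenced in the late stages. Levels are given as UMIs of a gene per 1000000 UMIs of the stage (CPM) and, where stated, per 1000000 UMIs without those of the globin genes (non-globin CPM). Of the S0-low cells, 15.03% fell in clusters named hepatocyte-like, megakaryocyte-like, myeloid-like or macrophage-like, against at most 0.490% in each later stage. Clusters without a name were not counted in this share. Among them were 489 cells led by *Lsp1* and *Cd34* and 59 cells led by *Mest* and *Sparc*. How many of these lay in S0-low was not examined, and the values below without non-erythroid-like cells keep any that did. Erythroid landmarks had higher CPM in each stage up to S3 than in the one before it, and *Slc4a1* was lower again in S4/S5. *Slc4a1* was at 11.4, 31.5, 123, 427, 691 and 492 CPM from S0-low to S4/S5, and the summed adult α-globin genes went from 2473 to 145340 CPM.

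From S0-low to S3, all 7 skeleton genes had higher CPM, and 6 were at least 2-fold higher. *Tmod1* differed most (19.9-fold, 15.9 to 25.2), followed by *Dmtn* (18.8-fold, 15.7 to 22.6), *Sptb* (9.73-fold, 7.93 to 12.02) and *Epb41* (4.28-fold, 3.801 to 4.83). *Ank1* (2.34-fold, 2.01 to 2.72) and *Add2* (2.29-fold, 2.03 to 2.58) were just past 2-fold and *Add1* (1.81-fold, 1.62 to 2.02) was under it. Over the 9410 genes with at least 50 UMIs in both stages together, all 7 members included, 5.74% were at least 2-fold higher, and the median ratio was 0.378 against a median of 4.28 over the members. In non-globin CPM all 7 members were at least 2-fold higher, against 10.0% of these genes. The size of the ratio depended on where the stage borders lie, all of which the 3 settings below redrew. In them S3 held 1084 to 1940 cells in place of 855. With CD71 and Ter119 classes drawn on log10 counts, by a Gaussian mixture or by a log ratio within each cell, S0-low held 576 to 646 cells in place of 1510, and the ratio was 30.6 to 41.9 for *Sptb*, 6.90 to 9.17 for *Ank1* and 9.62 to 12.3 for *Add2*. Without the non-erythroid-like cells, *Ank1* was at 1.97-fold and *Add2* at 1.94-fold, and 4 members remained at least 2-fold higher.

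**Figure D1:**
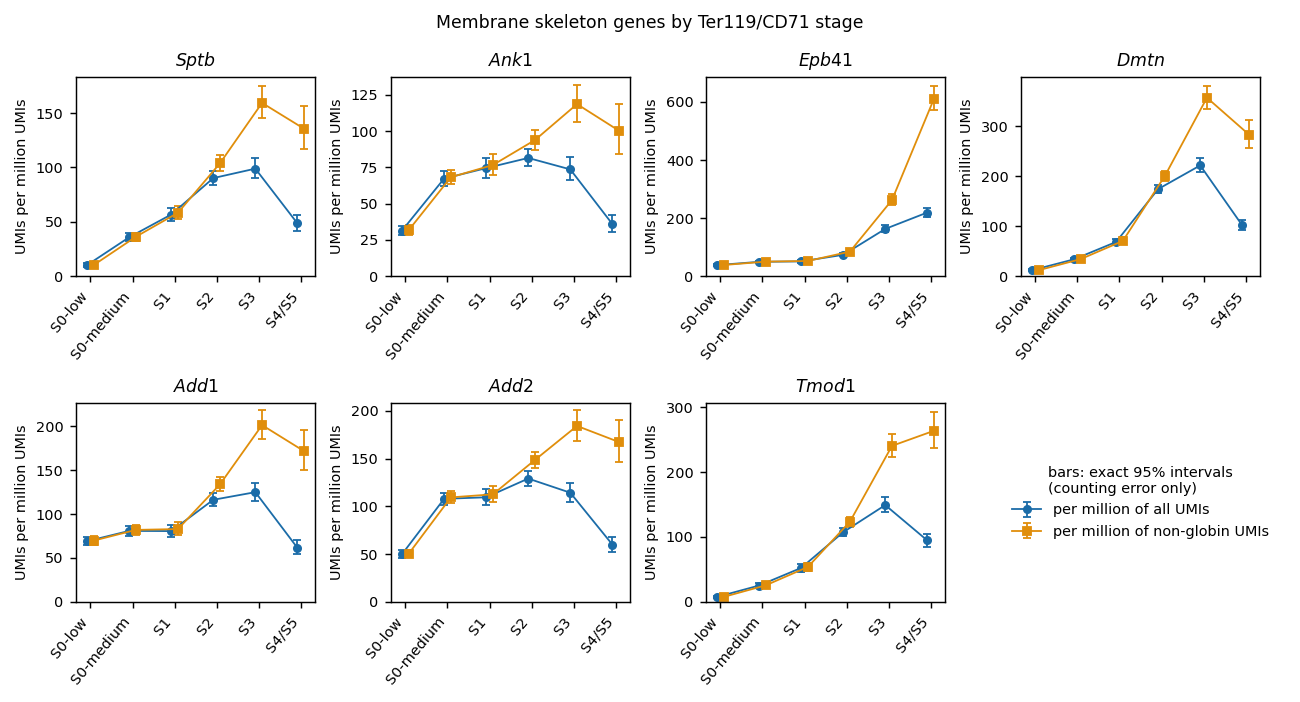
Levels of the 7 genes in the 6 stages, in CPM (circles) and non-globin CPM (squares), with exact 95% intervals. In CPM 6 genes are lower in S4/S5 than in S3, where only 5.31% of 5556 genes compared are higher in S4/S5. *Epb41* is highest in S4/S5 with either denominator.

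*Sptb* encodes β-spectrin, the chain that carries the binding sites for ankyrin and, near its end, for actin and protein 4.1. From S0-low to S4/S5 it was at 10.2 (8.41 to 12.2), 35.7, 56.7, 90.2, 98.9 (90.0 to 109) and 48.6 CPM (41.8 to 56.2). Each stage up to S2 was higher than the one before it, and S2 and S3 were not told apart in CPM (ratio 1.10, 0.976 to 1.23). In the other units they were, with S3 at 1.53-fold in non-globin CPM (1.37 to 1.72) and at 0.822-fold in UMIs per cell (0.732 to 0.923). The largest step was the first, 3.52-fold from S0-low to S0-medium (2.86 to 4.36). After thinning each cell to 2000 UMIs, 2.58% of S0-low cells, 16.7% of S2 cells and 17.8% of S3 cells held a *Sptb* UMI. Without thinning the shares were 7.15%, 43.5% and 35.3%.

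*Ank1*, the red cell ankyrin that ties β-spectrin to band 3, was at 31.4, 67.3, 74.5, 81.5, 73.6 and 35.9 CPM from S0-low to S4/S5. In CPM most of the difference fell between S0-low and S0-medium (2.14-fold, 1.88 to 2.43), where 71.6% of the way to its highest level was covered. From S0-medium to S3 no step between neighbouring stages had an interval that left out 1. In non-globin CPM the level went on to 119 in S3 (106 to 132), and the step from S2 to S3 was 1.26-fold (1.11 to 1.44). With this denominator 42.0% of the way to its highest level was covered by S0-medium.

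*Epb41* encodes protein 4.1R, which strengthens the junction of spectrin with actin. Its CPM over the stages was 38.0, 49.3, 50.8, 73.4, 163 and, in S4/S5, 219 (205 to 235). The first step was 1.30-fold, and S0-medium and S1 were not told apart (ratio 1.03, 0.893 to 1.18). Its largest step was from S2 to S3 (2.22-fold, 1.99 to 2.46). Only 19.5% of the difference between S0-low and its highest stage had been reached by S2, against 77.4% for *Dmtn*, 90.2% for *Sptb* and 70.4% for *Tmod1*, each relative to its own highest stage.

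*Dmtn*, the gene of dematin, an actin-bundling protein of the junctions, was at 11.8, 33.7, 68.5, 175, 222 (208 to 236) and 102 CPM in the order of the stages. Every step up to S3 had an interval above 1. The steps were 2.86-fold, 2.03-fold, 2.55-fold and 1.27-fold, so that each of the first 3 was at least 2-fold. Per cell, S2 held 1.25 *Dmtn* UMIs and S3 held 1.19, and these were not told apart (ratio 0.953, 0.880 to 1.03).

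The adducins cap the fast-growing ends of the actin filaments and recruit spectrin to them, and red cells carry dimers of α-adducin (*Add1*) and β-adducin (*Add2*). *Add1* was at 69.0, 80.8, 80.6, 116, 125 and 61.5 CPM from S0-low to S4/S5. Its main step was from S1 to S2 (1.44-fold, 1.30 to 1.61). *Add2* was at 49.9, 108, 109, 129, 114 and 60.0 CPM over the same stages. Its main step was from S0-low to S0-medium (2.16-fold, 1.95 to 2.39), the step in which *Add1* differed by 1.17-fold (1.06 to 1.29). In CPM the main steps of the 2 partners thus lay at different stages. Per cell, *Add1* had its main step at the first as well (1.57-fold, 1.43 to 1.73) and was at 1.01-fold from S1 to S2 (0.908 to 1.12).

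*Tmod1*, tropomodulin, caps the slow-growing ends of the actin filaments and sets their length. The levels were 7.49 (6.00 to 9.24), 25.1, 52.2, 107, 149 (138 to 161) and 94.6 CPM from S0-low to S4/S5. Each step up to S3 had an interval above 1, from 3.35-fold at the first (2.62 to 4.31) to 1.39-fold at the last of them (1.26 to 1.53). The first step depended on the gates and was 1.18-fold with classes drawn on log10 counts, 1.37-fold with a log ratio within each cell and 2.05-fold with a Gaussian mixture. Of the thinned cells, 1.46% held a *Tmod1* UMI in S0-low and 26.9% in S3, and of the unthinned cells 5.50% and 50.2%.

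Set side by side, the members were at least 2-fold higher at different steps. From S0-low to S0-medium, *Sptb*, *Tmod1*, *Dmtn*, *Add2* and *Ank1* were, which is 5 of 7 against 1.55% of 9834 genes. From S0-medium to S1, *Dmtn* (2.03-fold) and *Tmod1* (2.08-fold) were, against 0.693% of 8659 genes. The same pair was past 2-fold from S1 to S2, at 2.55-fold and 2.06-fold, against 2.03% of 8217 genes. *Epb41* alone was past it from S2 to S3, with 2.10% of 7609 genes in CPM, and again *Epb41* alone with 5.09% of them in non-globin CPM. Several of these ratios lie close to 2, and as a mean of CPM over cells, the measure used by the study, *Dmtn* was at 1.66-fold and *Tmod1* at 1.85-fold from S0-medium to S1. With the non-erythroid-like cells left out, 3 members in place of 5 were past 2-fold in the first step. With the 3 other ways of drawing the classes the first step was 4.77 to 6.14-fold for *Ank1*, 5.90 to 9.43-fold for *Add2* and 5.87 to 8.15-fold for *Sptb*, and *Tmod1* was past 2-fold with the Gaussian mixture alone. From S0-medium to S1, *Sptb* was then at 2.003 to 2.41-fold and *Dmtn* at 1.94 to 2.98-fold.

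A finer series showed the same order within the stages. Cells low in Ter119 were split into 6 equal groups by rising CD71, those with intermediate Ter119 into 3 by rising Ter119, and those high in Ter119 into 5 by falling CD71, which gave 14 groups of 347 to 530 cells. *Add2* was at 7.59 non-globin CPM in the group with least CD71 (4.81 to 11.4), then 45.7, 88.5 and 104 in the next 3 groups. *Ank1* was at 5.61, 28.4, 56.0 and 62.0 in these groups. Both levels were thus several times that of the first group by group 3, where the median CD71 count was 187, below the border of S0-low at 234.

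Over the same first 4 groups *Tmod1* was at 6.60, 7.04, 10.7 and 19.6 non-globin CPM, and its first 2 groups were not told apart. *Dmtn* was at 5.28, 10.9, 21.2 and 26.6, and *Sptb* at 2.64, 9.32, 17.8 and 32.4. *Add1* stayed between 58.1 and 88.0 in all 6 low-Ter119 groups and *Epb41* between 32.7 and 52.0. The first group held most of the other cell types (24.2% of its cells in non-erythroid-like clusters, against 14.9% and 4.16% in groups 2 and 3), and their part in the differences between these groups was not tested beyond the values without them given above.

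In the 5 groups with high Ter119, *Epb41* was at 201, 294, 474, 537 and 775 non-globin CPM with falling CD71 (692 to 864 in the last). It was the only member whose level was highest in the group with least CD71. From group 13 to group 14, the last of these, *Sptb* went from 158 (128 to 193) to 70.0 (46.9 to 101), and *Add2* from 188 (155 to 226) to 113 (83.3 to 151). The intervals of the 2 groups overlapped for *Ank1* (117 and 72.4), *Dmtn* (302 and 215), *Add1* (171 and 142) and *Tmod1* (255 and 244). Of the cells in the last group, 6.63% belonged to a cluster led by the embryonic globin gene *Hbb-y*.

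**Figure D2:**
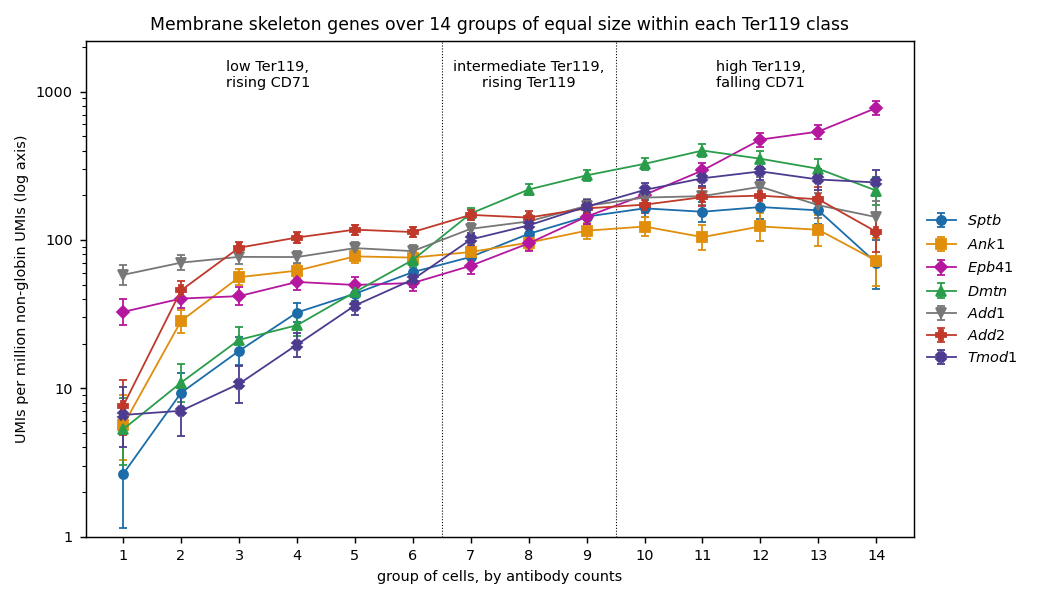
Non-globin CPM of the 7 genes (log axis) in 14 groups of cells ordered by antibody counts, with exact 95% intervals; levels are to be read along each gene, not between genes. On the log axis *Add2* and *Ank1* make most of their climb over the first 3 groups. In non-globin CPM itself they had covered 44.1% and 42.0% of the way to their highest stage by S0-medium. *Dmtn*, *Sptb* and *Tmod1* climb over most of the series, and *Epb41* from group 7 to the last.

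Over the 14 groups, the profiles of log2(non-globin CPM + 10) correlated most closely between *Ank1* and *Add2* (Pearson's r = 0.992) and between *Dmtn* and *Tmod1* (r = 0.987). The lowest values joined *Epb41* to *Add2* (r = 0.591) and to *Ank1* (r = 0.595). These are descriptions over 14 groups of 1 library that share depth and globin content. Among 8264 other genes with at least 200 UMIs, the 3 closest to *Sptb* were *Hemgn*, *Ubac1* and *Nptn* (r = 0.993 to 0.991). *Ank1* and *Add2* shared their first 2, *Rfesd* and *Tspan33*, and the next was *Lmna* for *Ank1* and *Ermap* for *Add2*. Closest to *Epb41* were *Adipor1*, *Riok3* and *Mkrn1* (r = 0.998 to 0.997). *Dmtn* was followed most closely by *Mgst3*, *Gucd1* and *Gmpr*, *Add1* by *Klf3*, *Fam109b* and *Tom1l1*, and *Tmod1* by *Epb42*, the gene of the band 3-binding protein 4.2, *Dhrs11* and *Slc25a37*, which encodes the mitochondrial iron carrier mitoferrin.

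Between S3 and S4/S5, the size of the difference depended on the denominator. In non-globin CPM the stages were not told apart for *Tmod1*, *Sptb*, *Ank1* or *Add2*. In CPM, 4 members were at least 2-fold lower, *Dmtn* at 0.458-fold (0.407 to 0.516), *Ank1* at 0.488-fold, *Sptb* at 0.491-fold and *Add1* at 0.493-fold, against 48.4% of 5556 genes, and the median ratio of these genes was 0.506. The members' share was therefore near that of all genes, and without the cells of the *Hbb-y* cluster only *Dmtn* was past 2-fold. None of the 7 members was at least 2-fold higher in CPM, as were 0.306% of the genes. *Epb41* was at 1.35-fold (1.22 to 1.49) and stood above 98.2% of the genes compared.

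In non-globin CPM, *Epb41* was 2.33-fold higher in S4/S5 (2.11 to 2.58) and was the 1 member past 2-fold, against 3.40% of the genes. *Tmod1* was at 1.10-fold (0.963 to 1.25), and *Dmtn* at 0.793-fold (0.704 to 0.893). *Add1* was at 0.853-fold (0.729 to 0.995). The intervals held 1 for *Sptb* (0.850-fold, 0.712 to 1.01), *Ank1* (0.845-fold, 0.687 to 1.03) and *Add2* (0.909-fold, 0.774 to 1.06). The median over all genes was 0.876. Per cell, S4/S5 held 0.942 *Epb41* UMIs and S3 held 0.871 (ratio 1.08, 0.978 to 1.20), while the other members were at 0.368 to 0.509 times their number in S3. The number of *Epb41* UMIs per cell in S4/S5 was not told apart from that in S3, while each other member had fewer. The median cell held 2347 non-globin UMIs in S3 and 1240 in S4/S5. Ratios per cell were not taken over all genes, so the lower numbers are not shown to be particular to these members.

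**Figure D3:**
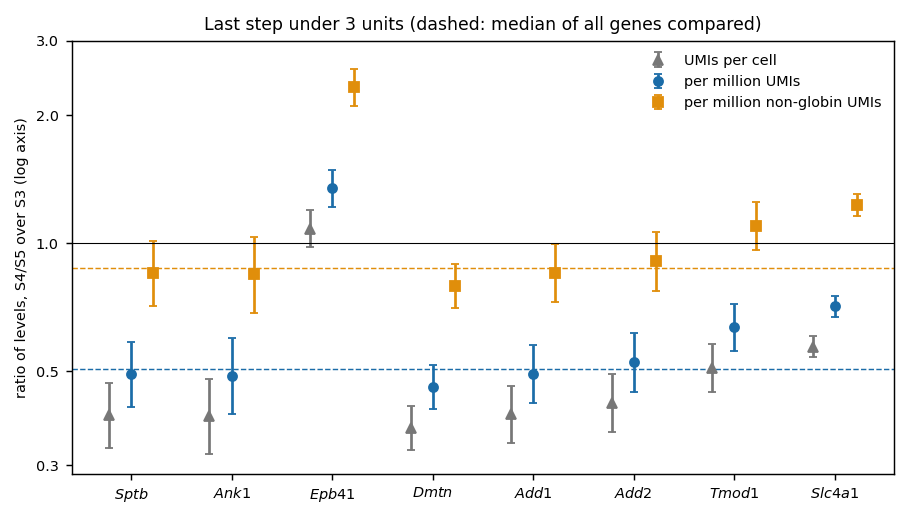
Ratio of the level in S4/S5 to that in S3 (log axis) for the 7 genes and *Slc4a1*, as UMIs per cell, CPM and non-globin CPM, with exact 95% intervals. Dashed lines are the medians of 5556 genes in CPM and non-globin CPM, and none was taken per cell. *Epb41* is at 1.08, 1.35 and 2.33 in the 3 units, above each other member in every one.

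The members were also followed along 2 antibodies that did not define the stages. CD44, an adhesion receptor lost as erythroid cells mature, was used to split the high-Ter119 cells into 4 equal groups. The median CD71 count fell with CD44, at 1603, 894, 599 and 262.5, so that this order is not separate from that of CD71. From most to least CD44, *Epb41* was at 181, 460, 685 and 653 non-globin CPM. *Dmtn* was at 298, 451, 359 and 244 and *Sptb* at 162, 159, 145 (117.1 to 176.6) and 104 (77.3 to 136.5). Both were lowest where CD44 was least, as were *Add1* (122) and *Add2* (136), while *Epb41*, *Ank1* and *Tmod1* were not. The *Sptb* intervals of the third and last groups overlapped. cKit, the stem cell factor receptor of progenitors, was used in the same way within the low-Ter119 cells. The median CD71 count rose as cKit fell, at 157, 241, 343.5 and 418.5. With falling cKit, *Dmtn* was at 11.4, 21.6, 45.0 and 73.0 CPM and *Tmod1* at 7.20, 17.9, 32.5 and 53.7. *Sptb* went from 15.5 to 44.6, whereas *Add1* stayed between 71.4 and 80.4 and *Epb41* between 42.7 and 50.9. *Ank1* was at 45.01, 58.5, 64.6 (58.6 to 71.1) and 52.3 CPM (46.1 to 59.0). *Add2* was at 67.1, 86.7, 101 (93.3 to 109) and 94.1 (85.7 to 103). Both had their highest value in the third group, but the intervals of the third and last groups overlapped. The share of non-erythroid-like cells was 16.4% in the group with least cKit and 3.40% to 5.42% in the others.

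Most members belong to families whose other genes serve nucleated cells, and in each of 5 families a member of the skeleton held a larger share of the family's UMIs in S0-medium than in S0-low. For β-spectrin, *Sptb* made up 28.0% of the UMIs of *Sptb* and *Sptbn1* in S0-low (23.8 to 32.6), 87.6% in S0-medium (84.2 to 90.5), 95.9% in S1 and 98.5% in S2. For tropomodulin the change was slower. *Tmod1* made up 22.2% of *Tmod1* and *Tmod3* in S0-low (18.2 to 26.7), then 55.2%, 71.0%, 83.7% and, in S3, 90.7% (88.4 to 92.7). Most of the change in the *Sptb* share had come by S0-medium, with a smaller one after it. The *Tmod1* share went on changing up to S3.

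Among ankyrins, *Ank1* was at 76.7% in S0-low (72.6 to 80.4) and 98.3% in S0-medium (97.0 to 99.1). *Epb41* made up 82.4% of its UMIs with *Epb41l2* in S0-low, 95.6% in S2 and 99.9% in S4/S5. Among the 3 adducin genes, *Add2* went from 31.0% in S0-low (28.9 to 33.1) to 51.1% in S0-medium (49.0 to 53.2), then to 53.2% in S1 (50.5 to 56.0) and 45.6% in S3 (42.7 to 48.6). *Add3* went from 26.2% to 10.6% and, in S3, 4.45%. *Add1* kept between 38.3% and 49.9% throughout. Shares within S0-low include its non-erythroid-like cells, in which the *Sptb* share was 8.33% (myeloid-like) to 44.4% (macrophage-like, 27 UMIs).

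**Figure D4:**
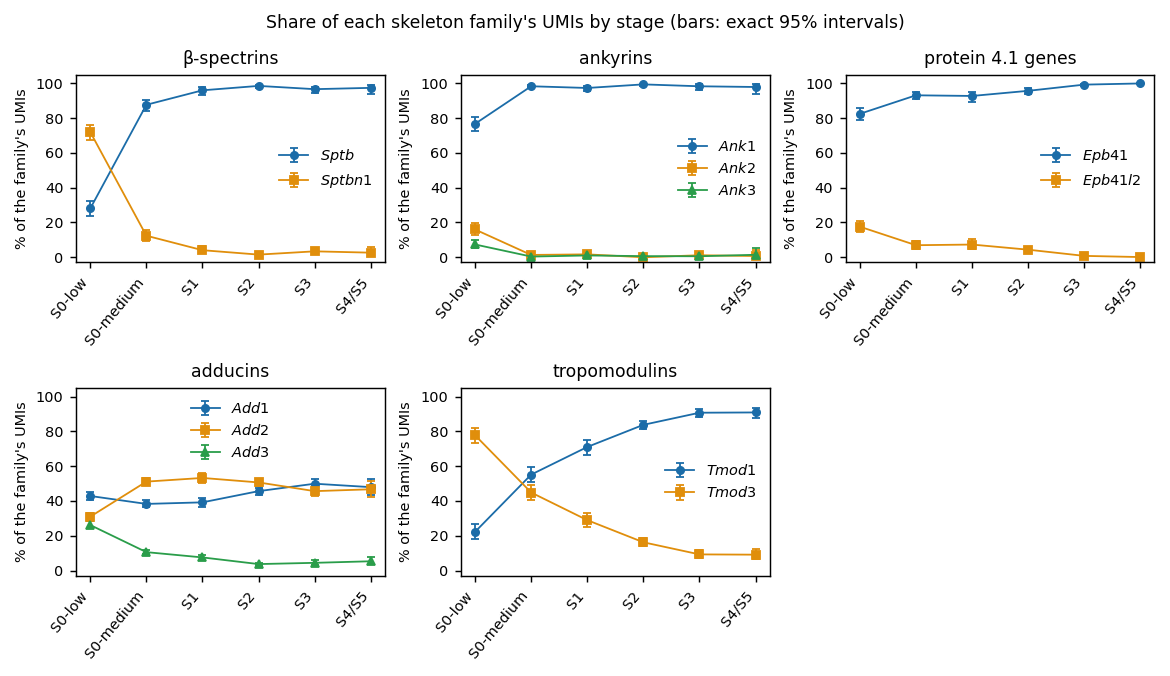
Percentage of each family's UMIs held by each gene in the 6 stages, with exact 95% intervals. *Sptb* and *Tmod1* are the minority of their families in S0-low, at 28.0% and 22.2%, and the majority from S0-medium on, at 87.6% and 55.2%.

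Among the genes of other skeleton proteins, some were higher and more were lower in S3 than in S0-low. Of 24 further skeleton genes and paralogs, 15 had at least 50 UMIs in both stages together. Of these, 3 were at least 2-fold higher, among them *Epb42* (25.7-fold) and *Mpp1* (8.999-fold), which encodes the membrane-associated protein p55 that binds protein 4.1. A further 10 were at least 2-fold lower, most of all *Sptan1* (0.0780-fold), *Ank2* (0.133-fold), *Sptbn1* (0.134-fold) and the tropomyosin gene *Tpm4* (0.138-fold). In S0-low these 4 genes were at 5.60, 6.55, 26.1 and 31.6 CPM, against 21.7, 52.7, 55.4 and 39.0 in hepatocyte-like cells. *Tpm4* was at 925 CPM in megakaryocyte-like cells. S0-low includes cells of both kinds, their part in these ratios was not tested, and no list was compared without them. Over all 9410 genes, 5.74% were at least 2-fold higher and 64.7% lower in CPM. The share of the list that was lower in CPM, 10 of 15, was near this background. The median ratio in CPM was 0.264, beside 0.378 over all genes. In non-globin CPM 3 of the 15 were at least 2-fold higher and 9 lower, against 10.0% and 40.9% of all genes.

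All of 14 genes of transmembrane proteins of the red cell were measured. Over all 9410 genes, 5.74% were at least 2-fold higher and 64.7% lower in CPM. Of the 14, 11 were at least 2-fold higher and 0 lower, with a median of 4.87. Among the highest were *Slc4a1* (60.8-fold), the glucose transporter gene *Slc2a1* (13.47-fold) and *Rhd* (11.2-fold). Of 23 genes of the actin cortex of nucleated cells, 0 were at least 2-fold higher and 19 lower in CPM, with a median of 0.339, and 11 were lower in non-globin CPM. Over all genes, 64.7% were at least 2-fold lower in CPM and 40.9% in non-globin CPM. Lowest were the actin crosslinker filamin A (*Flna*, 0.0590-fold), vimentin (*Vim*, 0.0623-fold), coronin (*Coro1a*, 0.0743-fold) and plastin (*Lcp1*, 0.0961-fold). In S0-low they were at 18.5, 109, 112 and 47.7 CPM, against 46.5, 303, 521 and 241 in myeloid-like cells. S0-low includes such cells, and their part in these ratios was not tested. The median of the actin cortex list lay near that of all genes, and these lists were put together with earlier results of these data known.

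Outside the erythroid stages, the members differed in where else they were found. *Epb41* and *Add1* were at 88.5 CPM (73.4 to 106) and 81.8 CPM (67.3 to 98.6) in 146 megakaryocyte-like cells, cells of the platelet lineage that shares a progenitor with red cells. The *Epb41* level was above that of S0-low, which was 0.429-fold of it (0.350 to 0.530), and S3 was 1.84-fold higher (1.51 to 2.25). *Ank1*, *Dmtn* and *Add2* were at 6.70, 10.4 and 10.4 CPM in these cells, and S3 was 10.99-fold, 21.3-fold and 10.96-fold higher. *Sptb* and *Tmod1* lay between, at 22.3 and 17.1 CPM.

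Droplets can hold RNA released from other cells, and the levels in hepatocyte-like cells, which are not of the red cell lineage, are given beside those of S0-low for this reason. The 189 hepatocyte-like cells (median 13001 UMIs) held *Sptb* at 9.31 CPM (5.76 to 14.2), *Dmtn* at 9.75 and *Tmod1* at 6.65. For these 3 genes S0-low was at 1.09-fold (0.683 to 1.83), 1.21-fold (0.768 to 1.995) and 1.13-fold (0.647 to 2.10) of them, so that their level in S0-low as a whole was not told apart from that in hepatocyte-like cells. The level in these cells is not a floor for all droplets, since the low-Ter119 group with least CD71 held *Sptb* at 2.61 CPM (1.13 to 5.15). *Epb41* and *Add1*, also found in the other nucleated cells above, were at 23.9 and 35.01 CPM in hepatocyte-like cells. *Ank1* and *Add2*, by contrast, were 4.73-fold (2.83 to 8.54) and 7.03-fold (4.29 to 12.4) higher in S0-low than in hepatocyte-like cells. Hepatocyte-like and megakaryocyte-like cells made up 7.29% and 1.79% of S0-low. The ratios of S0-low to them therefore share cells, which the intervals do not take into account. After thinning, 1.59% of hepatocyte-like cells held a *Sptb* UMI and 1.59% a *Tmod1* UMI, against 2.58% and 1.46% in S0-low. The unthinned shares were 9.52% and 6.35% in hepatocyte-like cells and 7.15% and 5.50% in S0-low. With the hepatocyte-like level subtracted from both stages, the ratio of S3 to S0-low was 104 for *Sptb*, 103 for *Dmtn*, 168 for *Tmod1* and 9.87 for *Epb41*, and 2.503 to 2.70 for *Add1*, *Add2* and *Ank1*. Since the first 3 rest on a remainder near 0 in S0-low, they are not sizes.

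**Figure D5:**
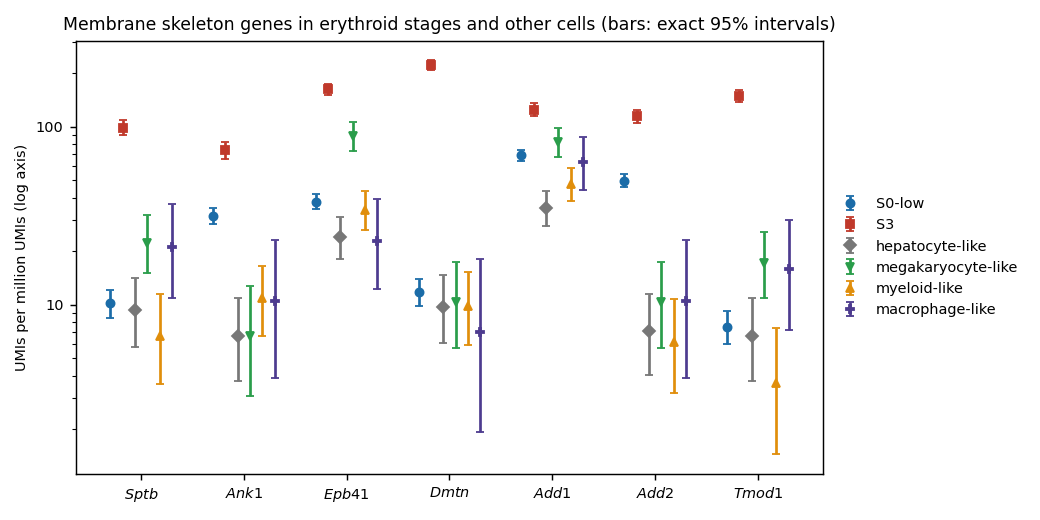
CPM (log axis) of the 7 genes in S0-low, S3 and the 4 kinds of non-erythroid-like cells, with exact 95% intervals. *Sptb*, *Dmtn* and *Tmod1* in S0-low overlap the hepatocyte-like cells, *Ank1* and *Add2* do not, and *Epb41* and *Add1* are at 88.5 and 81.8 CPM in megakaryocyte-like cells.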

How the data were processed

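The authors mapped the cDNA reads to mm10 with Cell Ranger and deposited raw UMI counts per gene and cell, and raw counts per antibody and cell, without normalization. The submitters' processing notes also name Seurat. Strand and annotation settings of the counting are not given in the sources used here. Of all cells, 508 had fewer than 300 or more than 5000 genes or over 9% mitochondrial UMIs and were removed. Doublets were called with Scrublet's method (expected rate 6%), which marked 128 cells (1.63%), and were removed.

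Cells whose summed counts of 5 lineage antibodies exceeded the median by 2 scaled median absolute deviations on the log scale (95.8 counts) were left out. Ter119 and CD71, on a centered log ratio scale over cells, were split by k-means, with Ter119 borders at 24.5 and 88.5 counts and CD71 borders at 234 and 765 counts in Ter119-low cells (765 also for S2) and 730 counts in Ter119-high cells. These gates stand in for those of the study, whose positions its text does not give. Clusters (2000 variable genes, 16 principal components, 30 neighbours, Leiden, resolution 0.8) were named where 3 markers stood among their top 10 genes. Levels are summed UMIs of a gene over summed UMIs of the cells. Intervals are exact Poisson, Clopper-Pearson or conditional ones for counts, shares and ratios. Molecular identifiers were counted, but the intervals leave out differences between animals, libraries and gates.

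All 7 members are named, with, from each list, up to 4 genes that were highest and 4 that were lowest by at least 2-fold from S0-low to S3, the 3 genes closest to each member over 14 groups (pseudocount 10 CPM), and *Slc4a1* and α-globin, the sum of the near-identical copies *Hba-a1* and *Hba-a2*. Some genes that this rule names are not reported here. The members and lists were chosen with earlier results of these data known. On simulated counts for S3 against S0-low over 9109 genes, 200 of 200 changed genes had the right direction and 194 intervals held the true ratio. Of the simulated cells given a stage, 99.9% were placed in the right one. The simulated antibody counts lay in well-separated groups, and the simulated gene counts followed the Poisson model that the intervals assume. These simulations therefore check the code and cannot show how well the gates or intervals hold for the real cells. The tools were scanpy 1.11.5, scikit-learn 1.9.0, igraph 0.11.9, scipy 1.17.1, pandas 2.3.3, numpy 2.4.6 and matplotlib 3.10.9 under Python 3.11.15, with seed 7.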

Additional observations from a re-analysis of the deposited data

How the results depend on the processing

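No paired analysis was possible because there is 1 library. Under each of the 13 alternatives all 7 members kept a ratio of S3 to S0-low above 1. The values below lay outside the counting interval of the reported ratio. As UMIs per cell the ratio was 1.26 for *Add1*, 1.595 for *Add2*, 1.63 for *Ank1*, 2.98 for *Epb41*, 6.78 for *Sptb*, 13.1 for *Dmtn* and 13.9 for *Tmod1*. In non-globin CPM it was 2.89, 3.65, 3.73, 6.83, 15.5, 29.98 and 31.7 for these genes in the same order. With a Gaussian mixture it was 2.02, 9.62, 9.17, 4.83, 39.4, 33.5 and 25.4. Log10 antibody counts gave 9.65 for *Add2*, 7.90 for *Ank1*, 41.9 for *Sptb* and 29.1 for *Dmtn*, and the log ratio within each cell 12.3, 6.90, 30.6 and 36.9. Without border cells *Add2* was at 2.78 and *Ank1* at 2.73, without the lineage filter at 3.02 and 3.06, and without non-erythroid-like cells at 1.94 and 1.97. As a mean over cells *Dmtn* was at 15.6 and *Sptb* at 7.11. With the hepatocyte-like level subtracted, *Add1* was at 2.64, *Epb41* at 9.87, *Sptb* at 104.3, *Dmtn* at 103.3 and *Tmod1* at 168.1.

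Of counts past 2-fold, that from S0-low to S0-medium became 3 without non-erythroid-like cells and 4 with log10 antibody counts and with the log ratio within each cell. From S0-medium to S1 it became 0 as a mean over cells and 3 with the log ratio within each cell and with the Gaussian mixture, and from S1 to S2 it became 1 as a mean over cells and 0 as UMIs per cell. From S2 to S3 it became 0 as UMIs per cell and 3 with log10 antibody counts. From S3 to S4/S5 it became 1 higher member in non-globin CPM and 1 lower member without the *Hbb-y* cluster, an alternative chosen after seeing the data. Directions whose interval left out 1 in CPM turned for *Add2* from S1 to S2 (0.826 as UMIs per cell) and from S2 to S3 (1.24 in non-globin CPM). *Dmtn* from S2 to S3 (0.953 as UMIs per cell) and *Tmod1* from S3 to S4/S5 (1.10 in non-globin CPM) also crossed 1. The intervals of these last 2 ratios held 1, so that no opposite direction was shown. Among ratios whose CPM interval held 1, *Ank1* was at 0.766 from S1 to S2 as UMIs per cell, and from S2 to S3 *Ank1* was at 1.26 in non-globin CPM, *Sptb* at 0.822 and *Add1* at 0.806 as UMIs per cell, each with an interval that left out 1. The causes were not tested. The limits are the gates, the few UMIs of *Sptb*, *Dmtn* and *Tmod1* in S0-low (118, 137 and 87), and the absence of a second library.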

Other observations

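A small cluster of 75 cells was led by the embryonic globin genes *Hbb-y* and *Hba-x*, and 81.7% of its UMIs came from globin genes. In it *Epb41* reached 501 non-globin CPM (349 to 697, 35 UMIs), 0.819-fold of the level in S4/S5 (0.567 to 1.15). *Tmod1*, at 42.9 non-globin CPM from 3 UMIs, was at 0.163-fold (0.0334 to 0.480), and *Dmtn*, at 100.2 from 7 UMIs, at 0.353-fold (0.141 to 0.735). *Add2* was at 157 non-globin CPM from 11 UMIs (ratio 0.942, 0.463 to 1.72). For *Sptb*, *Ank1* and *Add1*, with 4, 4 and 7 UMIs, the intervals of the non-globin CPM ratio to S4/S5 held 1. In CPM all 7 members were lower in the cluster than in S4/S5, each with an interval below 1. These ratios ran from 0.0833 for *Tmod1* (0.0171 to 0.245) to 0.4815 for *Add2* (0.237 to 0.878). Of the 75 cells, 40 were also in S4/S5, and the intervals do not take this overlap into account. The cluster made up 4.54% of S4/S5 and 1.52% of S3, and without it the ratio of S4/S5 to S3 in CPM was 1.39 for *Epb41* and 0.477 to 0.661 for the other members.

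In 273 myeloid-like cells *Epb41* and *Add1* were at 34.1 and 47.5 CPM, and in 82 macrophage-like cells *Add1* was at 63.4 CPM (44.4 to 87.8) and *Sptb* at 21.1 CPM (10.9 to 36.9).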
